A study of Mus musculus with 6 samples.

Results

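Clathrin chains, epsins and the adaptors of the HIP1 family are the coat and the membrane-linking proteins of clathrin-mediated endocytosis. The 10 genes described here were chosen by name: the clathrin heavy chain Cltc, the light chains Clta and Cltb, the light-chain-binding proteins Hip1 and Hip1r, the epsins Epn1, Epn2 and Epn3, the scaffold Eps15 and the adaptor Picalm. All 10 were among the 12803 genes of the expression table and all 10 passed the filter on low values. Messenger RNA was sequenced in 6 libraries from 2 mouse kidney cell lines. In the KO group were 3 libraries of a line derived from podocytes, with the genotype Myosin 1e KO, and the WT group held 3 libraries of the murine podocyte line that the labels call Mundel, with the genotype WT. No treatment, time point or animal age is given for either group, and a heterozygous genotype named in the design text was not analysed here. Since 1 cell line stood for each genotype, the genotype and other differences between the lines cannot be told apart. Separate cultures are not described in the labels, so p-values measure the spread between these libraries.

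Clathrin forms three-legged units of heavy chains, each of which carries a light chain, and these units assemble into a lattice on the membrane. The lattice does not bind lipid itself. Adaptors such as AP-2, epsins and PICALM hold it on the membrane, bend the membrane and select cargo, while HIP1 and HIP1R join the lattice to actin. Myosin 1e, the motor encoded by Myo1e, is recruited to clathrin-coated pits, where branched actin forms late in vesicle formation. Podocytes take up filtered protein and turn over surface receptors of the slit diaphragm by endocytosis.

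The listed genes of a library held 35447096 to 42106461 reads. Correlations of log2 CPM (counts-per-million) across genes were at least 0.988 within a line and at most 0.713 between lines, with genes not being independent replicates. Myo1e had 18.9, 16.3 and 16.8 CPM in KO libraries, against 184, 180 and 168 CPM in WT libraries, which fits the label of each library. Of 12616 genes tested, 68.1% passed the test between the lines (limma, Benjamini-Hochberg adjusted p under 0.05), 34.3% higher and 33.8% lower in the KO line. The labels call both lines podocyte cells, and 9 of 12 podocyte markers were in the table. The other 3 were not analysed here. Of the 9, 3 were higher and 4 were lower in the KO line. The summed level of the 9 was 2195 to 2578 CPM in KO libraries and 2435 to 2910 CPM in WT libraries, a sum that hides these opposite changes. All 12 markers of simple epithelium were higher in the KO line, with a summed level of 8268 to 8985 CPM in KO libraries and 10.3 to 13.3 CPM in WT libraries, where Cldn3, Cldn7 and Esrp1 had 0 reads. Of 10 fibroblast and mesangial markers 6 were in the table and 5 were lower in the KO line, at 332 to 660 CPM in sum in KO libraries against 4681 to 4853 CPM in WT libraries. Of 11 tubule markers 6 were in the table and 5 were lower, at 454 to 518 CPM in KO libraries against 2059 to 2900 CPM in WT libraries. Only Flt1 of 8 endothelial markers was in the table, at 1.75 to 2.29 CPM in KO libraries and 4.52 to 14.7 CPM in WT libraries. Only Cd68 and Csf1r of 8 leukocyte markers were, at 56.2 to 75.5 CPM in sum in KO libraries and 37.1 to 56.9 CPM in WT libraries. The part of these markers in the results on the 10 genes was not tested.

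Among the 10 genes, 3 were higher in the KO line, 3 were lower and 4 did not pass the test. The 6 that passed (60% of the set, against 68.1% of all genes tested) were Epn3, Cltc and Eps15 on the higher side and Hip1, Picalm and Epn1 on the lower side. The same 6 had libraries that did not overlap between the lines, against 73.5% of all genes tested. Changes of 2-fold or more were seen for 2, Epn3 and Hip1, against 27.9% of all genes tested. The median log2 fold change was 0.11 over the 10 genes and 0.014 over all genes tested, and the median of its size without the sign was 0.31 over the 10 and 0.51 over all. The share of the set that passed was near that of the whole table. The summed level of the 10 genes was 2117 ± 96 CPM in KO cells and 2210 ± 61 CPM in WT cells (SD, n = 3 each). The plot of levels by library shows these genes side by side.

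**Figure D1:**
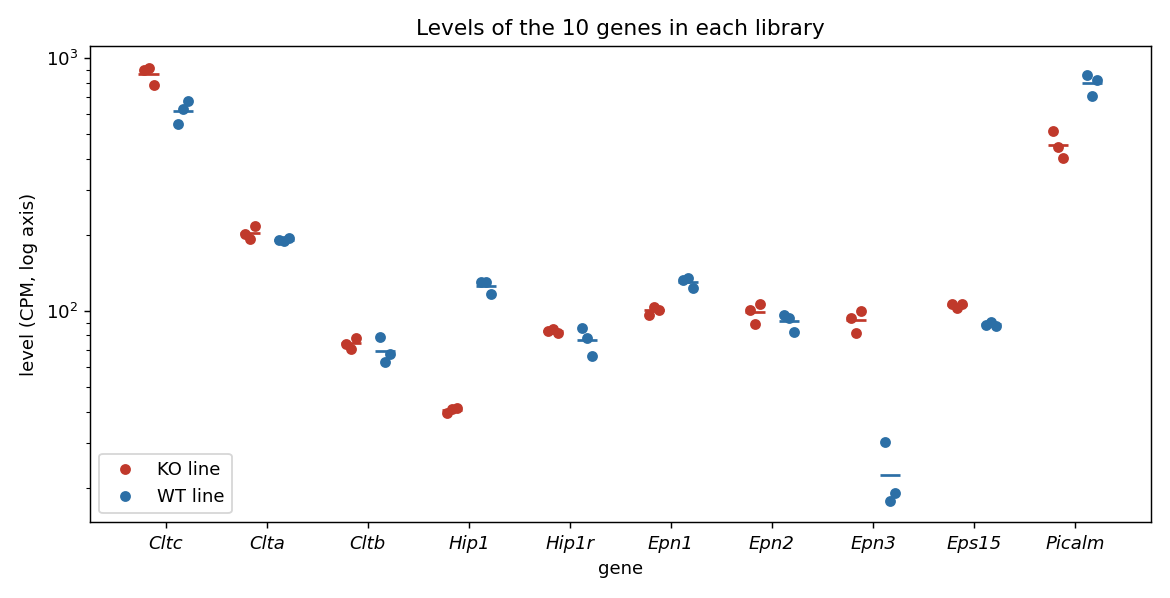
Levels of the 10 genes in CPM on a log axis, with the 3 KO libraries left of the 3 WT libraries for each gene; points are libraries and bars are means. Epn3 stood higher and Hip1 lower in KO libraries, and the light chains Clta and Cltb overlapped between the lines.

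The heavy chain was higher in the KO line while the light chains did not pass the test. In these bulk libraries, fewer cells that express a gene and less of its RNA per cell cannot be told apart. Cltc (chromosome 11, 86694351 to 86757565, minus strand, GRCm38, 33 exon blocks) encodes the leg of the clathrin unit. It had 896, 917 and 785 CPM in KO libraries, against 548, 632 and 676 CPM in WT libraries. All 3 KO libraries lay above all 3 WT libraries. The log2 fold change was 0.49 (SE 0.11, limma adjusted p = 0.00476), or 1.40-fold on the means, a size larger than that of 48.5% of the genes tested. The promoter of Cltc is shown as that of the heavy chain, which rose, from 250 bases before to 50 bases after the RefSeq start, at chr11:86757518-86757817 on the minus strand (GRCm38.p6), with the GC box GGGCGG in capitals.
Cltc promoter: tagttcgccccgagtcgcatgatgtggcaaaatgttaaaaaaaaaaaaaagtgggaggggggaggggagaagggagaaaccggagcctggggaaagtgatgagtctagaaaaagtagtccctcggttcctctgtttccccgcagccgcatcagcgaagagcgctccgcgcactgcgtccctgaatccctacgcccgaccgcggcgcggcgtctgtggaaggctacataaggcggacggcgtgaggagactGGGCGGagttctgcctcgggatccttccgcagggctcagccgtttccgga
The GC box, a site of Sp-family factors, occurred once in it, from position 1 after the start, counting both strands. It was present in 35.7% of the 32851 promoters of that length in the RefSeq table. A match of letters describes the sequence and is no evidence of binding.

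Clta and Cltb encode light chains A and B, which occupy the same place on the heavy chain and carry the binding site for HIP1 and HIP1R. Clta (chromosome 4, 44004452 to 44032846, plus strand) had 201, 192 and 216 CPM in KO libraries, against 190, 190 and 194 CPM in WT libraries. The libraries overlapped, and the log2 fold change of 0.08 did not pass (95% interval -0.08 to 0.25, limma adjusted p = 0.332). Cltb (chromosome 13, 54592401 to 54611344, minus strand) had 74.0, 71.0 and 78.1 CPM in KO libraries, against 78.7, 62.6 and 67.9 CPM in WT libraries. WT replicate 1 was the highest of the 6 and WT replicate 2 the lowest, and the log2 fold change of 0.10 did not pass (95% interval -0.12 to 0.32, adjusted p = 0.39). These intervals leave room for changes of the light chains of up to 0.25 and 0.32 on the log2 scale.

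Levels of different genes were compared per kilobase of exon (CPM per kb), over all annotated exons of a gene. On that scale Clta made up 88.1 ± 0.12% of the light-chain level in KO cells and 88.1 ± 1.2% in WT cells (SD, n = 3 each). The log2 ratio of Clta to Cltb differed by -0.015 between the lines (exact two-sided permutation test, p = 1). Without WT replicate 2 or WT replicate 3 the sign of this difference turned, at 0.054 and 0.0096. With the length of the longest coding transcript in place of all exons, a setting chosen after seeing the data, the share of Clta was 77.7 ± 0.19% in KO cells and 77.9 ± 2.0% in WT cells. Under either length the mean shares differed by less than the spread between libraries, while the share itself depended on the length.

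The ratio of Cltc to the summed light chains, per kilobase, was 0.830, 0.889 and 0.679 in KO libraries, against 0.529, 0.628 and 0.654 in WT libraries. The groups did not overlap, but KO replicate 3 and WT replicate 3 were close. The difference of the log2 ratio was 0.40 (exact two-sided permutation test, p = 0.1), and 0.1 is the smallest p that 3 libraries against 3 allow. Summed over the 3 chains, the level was 230 ± 2.1 CPM per kb in KO cells and 193 ± 7.3 CPM per kb in WT cells.

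Hip1 was the member that fell furthest. It encodes huntingtin-interacting protein 1, which binds phosphoinositides, clathrin light chains and AP-2, with its locus on chromosome 5 from 135406531 to 135545120 on the minus strand. It was measured at 39.5, 40.8 and 41.4 CPM in KO libraries, against 130, 130 and 116 CPM in WT libraries. The KO libraries lay within 2 CPM of each other and far below the WT libraries. The log2 fold change was -1.62 (SE 0.08, limma adjusted p = 4.05e-07), a size larger than that of 81.5% of the genes tested. RefSeq gives Hip1 a pair of starts, and the regions around both are shown because the gene had the largest fall of the set. The first is at chr5:135489180-135489479 and the second at chr5:135545073-135545372, both on the minus strand (GRCm38.p6), with GGGCGG or its reverse complement in capitals.
Hip1 promoter 1: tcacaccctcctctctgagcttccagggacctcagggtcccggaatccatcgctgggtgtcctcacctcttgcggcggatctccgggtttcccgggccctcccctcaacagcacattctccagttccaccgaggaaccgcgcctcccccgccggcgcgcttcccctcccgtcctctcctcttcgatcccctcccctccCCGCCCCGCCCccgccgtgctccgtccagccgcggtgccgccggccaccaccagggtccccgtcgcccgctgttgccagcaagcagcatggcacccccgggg
Hip1 promoter 2: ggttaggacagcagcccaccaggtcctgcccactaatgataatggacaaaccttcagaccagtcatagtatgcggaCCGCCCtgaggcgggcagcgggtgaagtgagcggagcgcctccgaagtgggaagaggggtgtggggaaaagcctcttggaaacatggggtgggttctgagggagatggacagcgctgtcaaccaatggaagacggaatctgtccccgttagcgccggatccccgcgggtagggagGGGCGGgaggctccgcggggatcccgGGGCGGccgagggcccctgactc
The inner start, promoter 1, held 2 overlapping GC boxes and the outer start, promoter 2, held 3. At least 2 were found in 19.5% of the 32851 promoters of that length. Among the 4 members that did not pass the test, Hip1r held 4, Cltb and Epn2 held 3 each, and the 2 starts of Clta held 1 and 0. A part of these boxes in the fall of Hip1 was not tested. Reads were given per gene, so the start in use in either line could not be told.

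Hip1r, the paralog whose protein binds F-actin and cortactin and limits actin assembly at coats, did not pass the test. Its locus is chromosome 5 from 123973628 to 124005558 on the plus strand. It was measured at 83.0, 84.7 and 81.9 CPM in KO libraries, against 85.8, 78.3 and 66.3 CPM in WT libraries. All 3 KO values lay between the lowest and the highest WT value, and the log2 fold change was 0.12 (95% interval -0.11 to 0.35, limma adjusted p = 0.299). In the GENCODE M21 annotation 12.5% of the exon bases of Hip1r, 918 bases, overlap exons of Vps37b on the opposite strand. Vps37b, a subunit of the ESCRT-I sorting complex, was at 47.7 ± 4.2 CPM in KO cells and 26.2 ± 4.0 CPM in WT cells. No source used here gives the strand setting of the counting, so reads of that stretch could not be assigned with certainty.

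The HIP1 family therefore had a different makeup in each line. Hip1 made up 21.3%, 21.5% and 22.3% of the family level per kilobase in KO libraries, against 46.2%, 48.5% and 49.9% in WT libraries. The log2 ratio of Hip1 to Hip1r was -1.85 ± 0.045 in KO cells and -0.10 ± 0.11 in WT cells, a difference of -1.75 (SD, n = 3 each; exact two-sided permutation test, p = 0.1, the smallest possible). With the length of the longest coding transcript, the share of Hip1 was 29.5 ± 0.65% in KO cells and 58.5 ± 1.8% in WT cells, so the larger gene of the family in the WT line depended on the length used. The summed family level was 14.4 ± 0.19 CPM per kb in KO cells and 20.1 ± 1.9 CPM per kb in WT cells.

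The epsins went in different directions. Epsins insert a helix into the membrane, bind ubiquitinated cargo and attach to clathrin and AP-2. Epn3, whose expression is known from gastric parietal cells and wounded or other epithelia, had the largest rise of the set. Its locus is chromosome 11 from 94489599 to 94499974 on the minus strand. It was measured at 93.6, 81.6 and 100.0 CPM in KO libraries, against 30.3, 17.8 and 19.1 CPM in WT libraries. All KO libraries lay above all WT libraries, and WT replicate 1 stood above the other WT libraries. The log2 fold change was 2.07 (SE 0.19, limma adjusted p = 2.32e-05), or 4.10-fold on the means, a size larger than that of 85.1% of the genes tested. Without WT replicate 1 it was 2.31. The simple epithelium markers given above moved the same way between the lines, with sums of 10.3, 11.1 and 13.3 CPM in WT replicates 1, 2 and 3, and their part in the result was not tested.

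Epn1, the most abundant epsin per kilobase in both lines, fell. Its locus is chromosome 7 from 5080235 to 5098178 on the plus strand. It had 96.5, 104 and 101 CPM in KO libraries, against 133, 135 and 123 CPM in WT libraries. The KO values lay below all WT values, with a log2 fold change of -0.37 (SE 0.07, limma adjusted p = 0.00194). Epn2 (chromosome 11, 61517249 to 61579687, minus strand) had 101, 89.1 and 107 CPM in KO libraries, against 96.5, 94.1 and 82.4 CPM in WT libraries. These values overlapped, and its log2 fold change of 0.12 did not pass (95% interval -0.10 to 0.34, adjusted p = 0.296).

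In the KO line Epn3, at 22.5 ± 2.3 CPM per kb, lay between Epn1 at 35.8 ± 1.4 and Epn2 at 18.9 ± 1.7 CPM per kb. In the WT line Epn3 was at 5.51 ± 1.7 CPM per kb, with Epn1 at 46.3 ± 2.3 and Epn2 at 17.4 ± 1.5 CPM per kb. The share of Epn3 in the epsin level was 30.0%, 27.0% and 30.4% in KO libraries, against 10.2%, 6.23% and 7.32% in WT libraries. Epn2 made up 24.5 ± 1.3% in KO cells and 25.1 ± 0.54% in WT cells, and Epn1 made up 46.4 ± 3.1% in KO cells and 67.0 ± 2.0% in WT cells. The log2 ratio of Epn3 to the summed Epn1 and Epn2 was higher by 2.29 in the KO line (exact two-sided permutation test, p = 0.1, the smallest possible). The 3 epsins together were at 77.2 ± 3.4 CPM per kb in KO cells and 69.2 ± 4.6 CPM per kb in WT cells. The bar plot of family shares shows these makeups for each library.

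**Figure D2:**
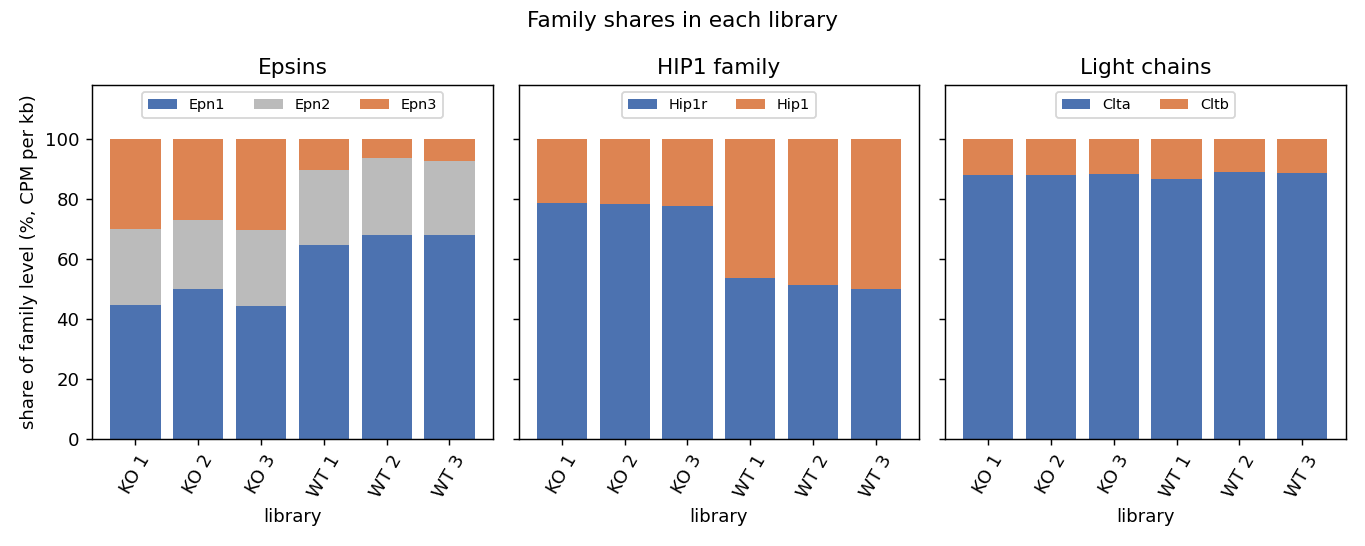
Share of each gene in the level of its family, in percent of CPM per kb, for the 3 KO libraries and then the 3 WT libraries. The share of Epn3 was 27.0% to 30.4% in KO libraries and 6.23% to 10.2% in WT libraries, that of Hip1 was 21.3% to 22.3% in KO libraries and 46.2% to 49.9% in WT libraries, and that of Clta was 86.7% to 89.1% in all 6.

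Eps15 encodes a scaffold of the rim of coated pits that binds AP-2 and epsins and helps to start the pit. Its locus is chromosome 4 from 109280268 to 109387817 on the plus strand. It was measured at 106, 103 and 106 CPM in KO libraries, against 88.2, 90.7 and 87.2 CPM in WT libraries. The libraries of each line lay close together and did not overlap. The log2 fold change was 0.25 (SE 0.07, limma adjusted p = 0.00961), the smallest change of the 6 that passed and larger in size than that of 27.3% of the genes tested.

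Picalm encodes the phosphoinositide-binding adaptor that senses membrane curvature and collects the vesicle-fusion proteins VAMP2, VAMP3 and VAMP8. Its locus is chromosome 7 from 90130213 to 90213465 on the plus strand. It was measured at 517, 444 and 401 CPM in KO libraries, against 857, 711 and 820 CPM in WT libraries. Every KO library lay below every WT library. The log2 fold change was -0.81 (SE 0.12, limma adjusted p = 0.000403), or 0.570 of the WT mean, and its size was larger than that of 66.3% of the genes tested. The promoter of Picalm is shown because it holds an unusual repeat, noticed after the sequences were read. It is at chr7:90129963-90130262 on the plus strand (GRCm38.p6), with GTCACGTGAC in capitals.
Picalm promoter: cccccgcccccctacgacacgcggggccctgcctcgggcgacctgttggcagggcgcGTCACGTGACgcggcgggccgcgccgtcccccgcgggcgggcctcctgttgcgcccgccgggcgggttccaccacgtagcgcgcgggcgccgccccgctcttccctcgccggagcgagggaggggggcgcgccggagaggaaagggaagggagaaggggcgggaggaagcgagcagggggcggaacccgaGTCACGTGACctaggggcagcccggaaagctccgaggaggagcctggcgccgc
GTCACGTGAC is its own reverse complement and contains the E-box CACGTG, the core bound by factors of the TFE and MYC families. It occurred 2 times here, starting 193 and 3 bases before the start. Of 32851 promoters of that length in the RefSeq table, 107 (0.326%) held it and 1, that of Picalm, held it more than once, while CACGTG alone was found in 7.15%. None of the other 11 member promoters in the table, which belong to 8 genes, held GTCACGTGAC. Picalm also had more CpG pairs than 97.8% of the promoters, 44 in 300 bases, and a GC content of 78.0%. The motif was taken from this same sequence, so its rarity describes the sequence and is no test. No data on binding or methylation bear on this sequence here.

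**Figure D3:**
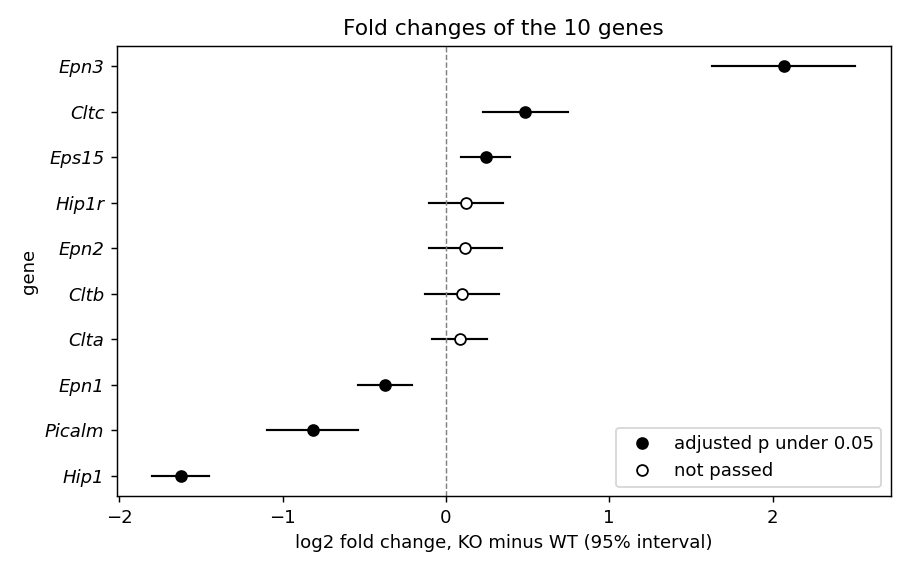
Log2 fold change of each of the 10 genes, KO minus WT, from limma, with 95% intervals; filled points passed at an adjusted p under 0.05 and open points did not. Epn3 lies at 2.07 and Hip1 at -1.62, and the intervals of Clta, Cltb, Epn2 and Hip1r cross 0.

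Ordered by level per kilobase, Clta and Cltc led in both lines, at 113 ± 6.7 and 102 ± 8.3 CPM per kb in the KO line and 106 ± 1.1 and 72.8 ± 7.6 CPM per kb in the WT line. In the KO line the libraries of Clta and Cltc overlapped, and in the WT line they did not. Epn1 and Picalm came next, with Picalm at 28.8 ± 3.7 CPM per kb and below Epn1 in the KO line, and at 50.6 ± 4.8 CPM per kb and overlapping with Epn1 in the WT line. In the KO line Epn3 overlapped with Epn2, and Cltb with Eps15, and the order closed with Hip1r at 11.3 ± 0.19 and Hip1 at 3.13 ± 0.073 CPM per kb. In the WT line Epn2 overlapped with Cltb, Cltb with Eps15, and Hip1r at 10.4 ± 1.3 with Hip1 at 9.66 ± 0.60 CPM per kb, and Epn3 was last. With the length of the longest coding transcript Hip1 was still last in KO cells and Epn3 in WT cells. Under that length Picalm stood second in the WT line, at 97.0 ± 9.3 CPM per kb against 94.9 ± 9.9 CPM per kb for Cltc, with overlapping libraries. In the KO line Cltc then came before Clta, with overlapping libraries.

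Spread within a line differed among the members. The coefficient of variation of the level in the KO line was lowest for Eps15 (1.64%) and Hip1r (1.70%) and highest for Picalm (12.9%). In the WT line it was lowest for Clta (1.08%) and Eps15 (2.03%) and highest for Epn3 (30.6%). Reads behind a level ranged from 676 for Epn3 in WT replicate 3 to 36610 for Picalm in WT replicate 1.

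By closeness of the centred log2 CPM over the 6 libraries, the genes most like Hip1 among 10654 compared were Nmral1, Csad, the cysteine sulfinic acid decarboxylase, and Wdr5b. Their root-mean-square distances to Hip1 were 0.048, 0.050 and 0.056 on the log2 scale. Those most like Epn3 were the small GTPase Rab27a, the sulfotransferase Chst7 and the heat-shock gene Hspa1b, at distances of 0.11, 0.13 and 0.13. Closeness over 2 groups of libraries mainly reflects a like difference between the lines.

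Other genes of the pathway were read from 8 lists of textbook genes, none of which holds any of the 10. The lists were drawn up with earlier results of these data known, and they include the targeted gene Myo1e, which fell. Shares of these lists are therefore descriptive and are no test of the pathway. Of 113 genes 105 were tested, 48 rose and 33 fell. That is 77.1% passed and 45.7% higher, against 68.1% and 34.3% of all genes tested, and the share higher in single lists ran from 20.0% for AP-2 to 66.7% for the Golgi and endosome adaptors. Their median log2 fold change was 0.18, against 0.014 over all genes tested. Counts of single lists stand beside 34.3% higher and 33.8% lower over all genes tested, so genes on both sides are no trait of a list. AP-2, the main adaptor of plasma membrane coats, had 1 subunit on each side and 3 that did not pass. Its beta subunit gene Ap2b1 was at 583 ± 40 CPM in KO cells and 328 ± 15 CPM in WT cells (log2 fold change 0.83). Its mu subunit gene Ap2m1, which encodes the part that reads sorting signals, was at 159 ± 13 CPM in KO cells and 275 ± 18 CPM in WT cells (log2 fold change -0.80). Ap2a1, Ap2a2 and Ap2s1 had log2 fold changes of -0.08, 0.05 and 0.05.

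Partners of Eps15 and other early scaffolds held 5 that rose and 1 that fell of 10 tested, with a median of 0.33. The intersectin Itsn2 was at 188 ± 15 CPM in KO cells and 100.4 ± 8.1 CPM in WT cells, and its paralog Itsn1 at 54.0 ± 3.5 CPM in KO cells and 138 ± 19 CPM in WT cells. The AP-2 cofactor Necap2 and the membrane-bending Fcho2 rose, with log2 fold changes of 0.85 and 0.56. The Eps15 paralog Eps15l1, at 91.9 ± 3.2 CPM in KO cells and 99.7 ± 1.5 CPM in WT cells, did not pass (limma adjusted p = 0.149).

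Of 15 cargo-selective adaptors tested, 6 rose and 6 fell, or 80.0% passed, against 68.1% of all genes tested. Tom1l1, a VHS-domain adaptor, was at 70.2 ± 0.46 CPM in KO cells and 9.32 ± 1.2 CPM in WT cells. The ESCRT-0 gene Hgs and the arrestin Arrb2 rose, with log2 fold changes of 0.84 and 0.57. The other arrestin, Arrb1, was at 12.0 ± 1.4 CPM in KO cells and 63.5 ± 10 CPM in WT cells. Dab2, the adaptor of LDL-receptor family members, fell to 224 ± 83 CPM in KO cells, against 454 ± 82 CPM in WT cells, and Ston1 fell with a log2 fold change of -0.96.

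Adaptors of the Golgi and endosomes held the most risen genes, 12 of 18 tested, with 2 that fell and a median of 0.38. That is 77.8% passed, against 68.1% of all genes tested. Ap1m2, the mu subunit of AP-1 that polarised epithelia use for basolateral sorting, had 115, 116 and 129 CPM in KO libraries, against 0.0937, 0.0776 and 0.226 CPM in WT libraries, or 4, 3 and 8 WT reads. Leaving out WT replicate 3 gave a WT level of 0.0856 CPM, and its fitted fold depends on the prior reads: the log2 fold change was 9.68, and 6.74 to 10.07 over the alternatives, lowest on the log2(CPM + 1) scale. Its widely expressed paralog Ap1m1 was at 53.4 ± 1.5 CPM in KO cells and 104 ± 3.5 CPM in WT cells. The AP-1 subunit genes Ap1g2 and Ap1s2 rose, with log2 fold changes of 1.48 and 1.32, and the Golgi adaptor Gga2 fell, with -0.75. The simple epithelium markers were also higher in the KO line, as were 34.3% of all genes tested, and their part in this result was not tested.

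Of 8 uncoating and kinase genes 3 rose and 3 fell, or 75.0% passed, against 68.1% of all genes tested. The uncoating chaperone Hspa8 was at 628 ± 104 CPM in KO cells and 375 ± 39 CPM in WT cells, and its cofactor Gak and the phosphatase Ocrl rose, with log2 fold changes of 0.35 and 0.72. Bmp2k, a kinase of AP-2, was at 26.3 ± 3.4 CPM in KO cells and 113 ± 11 CPM in WT cells, and the phosphatases Synj2 and Synj1 fell, with -0.84 and -0.26. Synj1 did not pass without WT replicate 3 (limma adjusted p = 0.0537, with at most that value over the alternatives). Of 17 genes of membrane bending and scission 7 rose and 9 fell, or 94.1% passed, with a median of -0.27. Sh3gl2, an endophilin gene, was at 24.2 ± 1.1 CPM in KO cells and 0.503 ± 0.18 CPM in WT cells, or 29, 20 and 11 WT reads. Its log2 fold change was 5.58, and 4.07 on the log2(CPM + 1) scale. Pacsin3 and the dynamin Dnm1 rose, with log2 fold changes of 1.29 and 1.17, and Dnm3, Bin1 and Fnbp1 fell, with -3.12, -1.35 and -0.98.

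Among genes that link coats to actin, 10 rose and 5 fell of 18 tested, with a median of 0.36. That is 83.3% passed, against 68.1% of all genes tested. Actr2, which encodes the Arp2 subunit of the Arp2/3 complex, was at 514 ± 14 CPM in KO cells and 222 ± 16 CPM in WT cells. Genes of other subunits of the complex, Arpc5 and Arpc4, rose, with log2 fold changes of 0.77 and 0.68, while Arpc1b fell with -0.66. Sh3kbp1, an adaptor between receptors and endophilins, fell to 13.2 ± 3.1 CPM in KO cells, against 34.7 ± 5.4 CPM in WT cells, and Myo1e, the targeted gene, is also in this list. Of 14 cargo receptors 4 rose and 6 fell, or 71.4% passed. Egfr, Sort1 and Tfrc rose, with log2 fold changes of 0.95, 0.49 and 0.42, and Lrp2, Vldlr and Lrp1 fell, with -4.56, -2.10 and -1.11. Tfrc, the transferrin receptor gene, did not pass without KO replicate 2 (limma adjusted p = 0.0903), KO replicate 3 (adjusted p = 0.0726) or WT replicate 1 (adjusted p = 0.0572), nor without an intensity trend (adjusted p = 0.0527). The plot of pathway lists shows all tested genes.

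**Figure D4:**
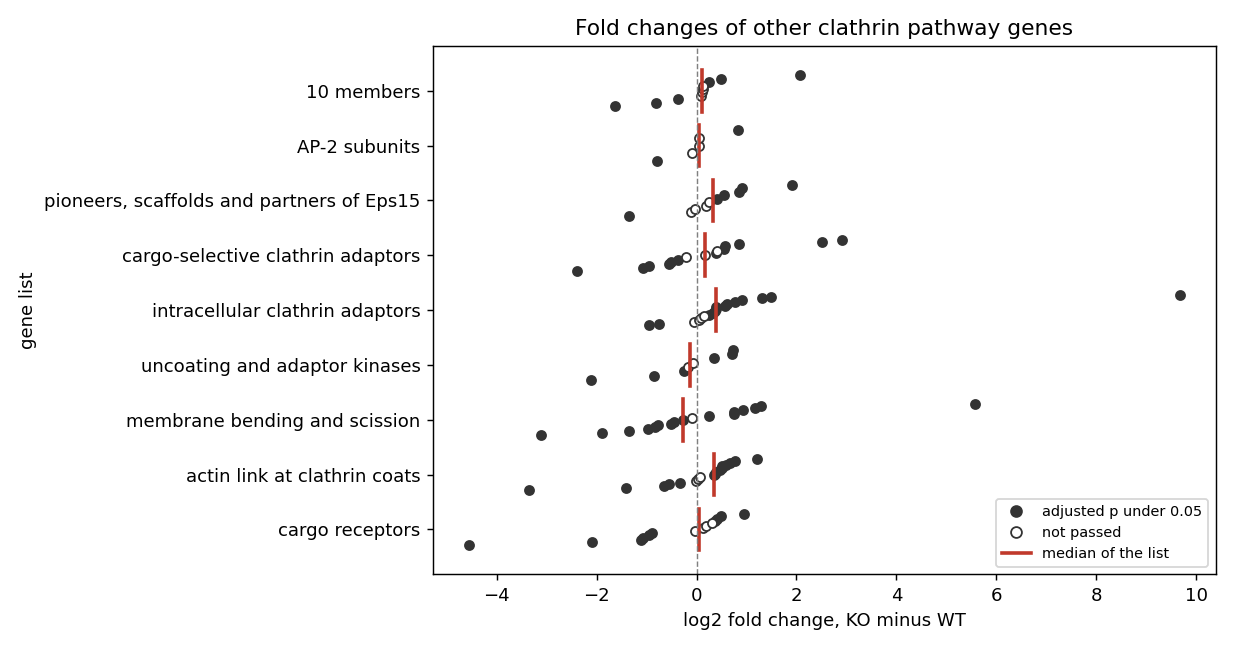
Log2 fold change, KO minus WT, of the 10 genes and of the tested genes of 8 other lists of the clathrin pathway; filled points passed at an adjusted p under 0.05, open points did not, and bars are list medians. The medians lie between -0.27 and 0.38, while Ap1m2 and Sh3gl2, whose fitted values depend on the pseudocount, lie at 9.68 and 5.58.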

How the data were processed

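RNA of 6 libraries was sequenced. Per the labels' protocols, RNA came from an RNeasy kit and 100 ng went into stranded mRNA libraries. Reads were processed on GRCm38 with STAR 2.7.3a and Trimmomatic 0.39, edgeR and featureCounts (Subread 1.6.4), per the submitters' processing notes. No source used here gives the annotation, strand setting, filter or prior. The authors deposited log2 CPM values (counts-per-million with a prior) for 12803 genes. Removing the lowest value, -5.26, on the linear scale left whole multiples of 1 step per library in 100% of values (tolerance 0.001), which gave the reads. CPM in the text is these reads per scaled library size, without the prior.

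Genes above 0 log2 CPM in 3 or more of the 6 libraries, 12616 in all, were tested with limma 3.58.1 (R 4.3.3) on the deposited values, with an intensity trend and Benjamini-Hochberg adjustment over all of them. Ratios were tested by exact permutation. Exon lengths and positions came from GENCODE M21 (GRCm38), promoters from RefSeq (GRCm38.p6, 9 of 10 members matched, not Epn3). The procedure was tested on simulated reads, with 50 genes at each changed fold among 12082 tested. Far fewer genes changed there than between these lines, so that test does not show how the procedure behaves in a contrast this wide. The members and lists were chosen with earlier results of these data known. Named were all members, Myo1e, up to 3 risen and 3 fallen genes per list with at least 5 CPM in the higher line, and, for Hip1 and Epn3, the 3 nearest genes. Eps15l1, the other AP-2 subunits, Vps37b, Snap91 and Clint1 were named outside that rule, after their values were seen. Alternatives covered filter, pseudocount, test, scaling, length, replicate block and single libraries.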

Additional observations from a re-analysis of the deposited data

How the results depend on the processing

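The 6 members past the threshold stayed past it in the same direction in all 15 alternative fits, and the other 4 did not pass in any of them. The pathway lists held 46 to 49 risen and 30 to 34 fallen genes over the alternatives. limma voom on the recovered reads called 4340 higher and 4265 lower genes over the table, against 4329 and 4261. The difference of the log2 ratio of Clta to Cltb, -0.015, had the opposite sign without WT replicate 2 (0.054) and WT replicate 3 (0.0096), and ranged from -0.11 to 0.054 when single libraries were left out, so its sign cannot be read. Differences of the other 3 ratios kept their sign in all alternatives, within 0.31 to 0.52 for Cltc to light chains, -1.81 to -1.70 for Hip1 to Hip1r and 2.12 to 2.50 for Epn3 to Epn1 and Epn2. The replicate block gave 4218 higher and 4177 lower genes, and no member changed its call. Under the block the ratio differences were -0.015, 0.40, -1.75 and 2.29, with exact sign-flip p-values of 1, 0.25, 0.25 and 0.25, where 0.25 is the smallest possible. Deviations of same-numbered libraries had correlations of 0.10, 0.08 and -0.10, and those of other pairs ran from -0.22 to 0.18. The labels do not say whether the numbers pair the libraries, and these values cannot decide it. Median centring moved the median log2 fold change over all genes to 0.034, against 0.014. Levels per kilobase rest on the annotated exons.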

Other observations

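Some paralog pairs of the pathway, chosen after their values were seen, went opposite ways in the KO line. The intersectins Itsn2 and Itsn1 had log2 fold changes of 0.90 and -1.35, the arrestins Arrb2 and Arrb1 of 0.57 and -2.40, and the AP-1 mu subunits Ap1m2 and Ap1m1 of 9.68 (6.74 to 10.07 over the alternatives) and -0.96. Other pairs did not: Synj1 and Synj2 both fell, and Ap2a1 and Ap2a2 did not pass. Over all genes tested 34.3% were higher and 33.8% lower, and pairs were not counted, so no trait of the pathway can be read from these. Among low genes, Snap91, the paralog of Picalm known from synapses, was at 2.32 ± 0.98 CPM in KO cells and 0.384 ± 0.15 CPM in WT cells (log2 fold change 2.50, limma adjusted p = 0.000987). With 21, 8 and 16 WT reads, its log2 fold change was 1.22 on the log2(CPM + 1) scale and up to 2.89 without single libraries. Clint1, which encodes the epsin-like adaptor of the Golgi, was at 169 ± 9.0 CPM in KO cells and 98.2 ± 2.5 CPM in WT cells (log2 fold change 0.78, limma adjusted p = 2.33e-05).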
